A study of Mus musculus with 12 samples.

Results

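In the newborn mouse forebrain, 9 genes of the serotonin system, namely 8 receptor genes and the transporter gene Slc6a4 for its reuptake, were followed across cell classes. The 9 genes were those of a fixed list (Htr1a, Htr1b, Htr1f, Htr2a, Htr2c, Htr3a, Htr4, Htr7 and Slc6a4), and all 9 were found by symbol among the 55335 genes of the count matrices. Single nuclei had been profiled at postnatal day 1 from mice of the MYT1L S710fsX strain, bred to C57BL/6J per the methods, with 8 WT animals (5 male, 3 female) and 4 animals heterozygous (Het) for the S710fsX frameshift of Myt1l, which encodes a neuronal transcription factor. Each library came from 1 animal, and the animals had been drawn from 4 litters, with no label saying which animals were littermates. The labels name the forebrain, and the methods name prefrontal cortex in one place. The frameshift is carried by every cell of a Het animal and was not restricted to a cell type.

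Serotonin is made by neurons of the brainstem raphe, whose axons reach the forebrain before birth. Htr1 receptors act through Gi proteins and lower cyclic AMP, Htr2 receptors act through Gq and phospholipase C, Htr4 and Htr7 act through Gs and raise cyclic AMP, and Htr3a forms a cation channel that serotonin opens. Slc6a4 clears serotonin from outside the cell and is also known to be used for a short period by some developing glutamatergic neurons that do not make serotonin. In the adult brain, Htr2c is a classical gene of the choroid plexus and Htr3a a marker of interneurons from the caudal ganglionic eminence.

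Of 126684 barcodes, none shared between libraries, 96566 nuclei were kept (56513 WT and 40053 Het), with a median of 1926 unique molecular identifiers (UMIs, tags that count captured RNA molecules). Library totals ran from 15439429 to 40784144 UMIs. A total of 67427 kept nuclei (69.8%) fell into 19 classes gated by marker genes, none of them a serotonin gene. ExN denotes excitatory and InhN inhibitory neurons, and MGE and CGE denote the medial and caudal ganglionic eminences. All levels are UMIs scaled to 1000000 UMIs of a class within a library (CPM), given as mean ± SD over libraries with at least 10 nuclei of that class. Myt1l itself was read at 1423 ± 110 CPM in WT (n = 8) and 1570 ± 52.4 CPM in Het libraries (n = 4), higher in Het by 147 CPM (unadjusted exact permutation p = 0.0323). The targeted gene was therefore not lower in the libraries labelled Het, and its level gives no check of the genotype labels. WT 4 held few striatal nuclei (18 D1 and 13 D2). Gates for hippocampal ExN, thalamic ExN and raphe serotonin neurons were dropped because fewer than 5 of their markers were raised 4-fold, so the planned contrasts that needed hippocampal or thalamic ExN (for Htr4, Htr7 and Slc6a4) were not run.

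**Figure D1:**
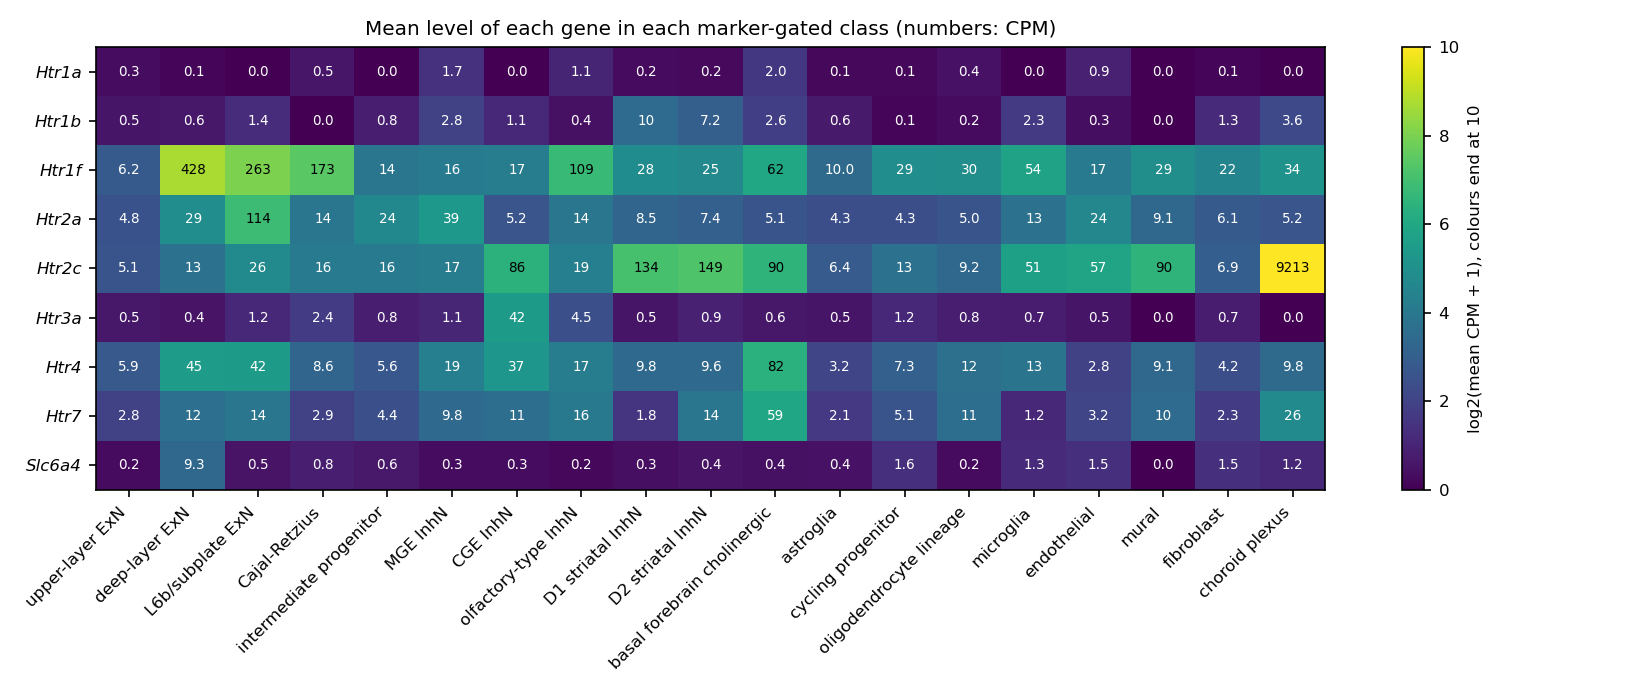
Mean CPM of the 9 genes (rows) in the 19 gated classes (columns), with colour showing log2(mean CPM + 1) up to a value of 10 and the number giving the mean CPM. Htr1f peaked in deep-layer ExN, Htr2a in L6b/subplate ExN, Htr2c in the choroid plexus class and Htr3a in CGE InhN.

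Htr1f, the Gi-coupled receptor with the clearest layer pattern, was high in deep-layer ExN and near the bottom of its range in upper-layer ExN. Its level was 428 ± 83.5 CPM in deep-layer ExN against 6.17 ± 1.73 CPM in upper-layer ExN (n = 12), a difference of 5.92 ± 0.49 on the log2(CPM + 1) scale that had the same sign in 12 of 12 libraries. The exact sign-change permutation test within libraries gave an adjusted p of 0.000977 over the 6 class contrasts that could be run, and its unadjusted p of 0.000488 was the smallest possible. With the gate on each nucleus's own UMIs, upper-layer Htr1f read 11.05 ± 5.00 CPM and the difference was 5.25. In WT, deep-layer Htr1f was lowest at 314 CPM, had a median of 397 CPM and was highest at 594 CPM. The 4 Het libraries read 378, 400, 483 and 369 CPM, all inside the WT range. Deep-layer ExN held 57.0% of all Htr1f UMIs. A UMI of Htr1f was found in 45.6% of 8976 deep-layer nuclei (median depth 2312 UMIs) and in 1.01% of 14699 upper-layer nuclei (2043 UMIs). Nuclei of the oligodendrocyte lineage gave 3.54% (1460 UMIs) at a mean of 29.8 CPM, above the upper-layer level, and how much of either value is free RNA was not tested.

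The order of Htr1f levels below deep-layer ExN was L6b/subplate ExN at 263 ± 90.7 CPM, Cajal-Retzius cells at 173 ± 64.4 CPM and olfactory-type InhN at 109 ± 63.3 CPM. Deep-layer ExN exceeded L6b/subplate ExN in 11 of 12 libraries (adjusted p = 0.0396, exact sign-change permutation test, over 162 neighbouring pairs of classes for the 9 genes). The next 2 steps down for Htr1f were not separated after adjustment (adjusted p = 0.176 and 0.407, exact permutation test). The order was set by the same values, and only 4 of the 162 pairs passed in all.

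Deep-layer nuclei were also divided at the median difference between 2 subsets of their gate markers, a split chosen after the levels were seen and therefore described without a test. Htr1f read 633 ± 77.9 CPM (range 519 to 764, n = 12) on the side with more Tle4, Hs3st4 and Zfpm2, genes of corticothalamic layer 6 neurons. On the side with more Fezf2, Ldb2 and Crym it read 241 ± 57.9 CPM (range 150 to 339.9), so the libraries did not overlap. Htr4 ran the other way, at 34.5 ± 9.11 CPM against 55.7 ± 13.1 CPM, with overlapping ranges.

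Slc6a4 was read mainly in deep-layer ExN, which gave 221 of its 322 UMIs (68.5%). Its level there was 9.32 ± 4.38 CPM (n = 12), with cycling progenitors next at 1.58 ± 1.71 CPM. The step between these classes, of 2.18 ± 0.81 on the log2(CPM + 1) scale, was seen in 12 of 12 libraries (adjusted p = 0.0264 over the 162 neighbouring pairs, exact sign-change permutation test). In upper-layer ExN Slc6a4 averaged 0.213 ± 0.322 CPM and was at 0 in 6 libraries. Deep-layer Slc6a4 ran in WT from 5.63 CPM through a median of 6.83 CPM to 14.5 CPM, and the Het libraries read 8.17, 3.35, 15.98 and 15.5 CPM, spreading below and above the WT range. Across the deep-layer marker subsets Slc6a4 read 10.02 ± 5.99 CPM on the Tle4, Hs3st4 and Zfpm2 side and 8.60 ± 4.67 CPM on the Fezf2, Ldb2 and Crym side, with overlapping ranges. A UMI was found in 2.23% of deep-layer nuclei and 0.0204% of upper-layer nuclei, and in 0.0259% of oligodendrocyte-lineage nuclei.

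The deep-layer Slc6a4 signal was set beside the markers of raphe serotonin neurons. Fev, the transcription factor that defines those neurons, gave 12.1 UMIs in all kept nuclei and 0 in deep-layer ExN. Tph2, the enzyme of serotonin synthesis in neurons, gave 277 UMIs in all and 20.7 in deep-layer ExN. The 8 raphe markers summed to 13.6 CPM over all nuclei in WT libraries (11.1 to 16.6 CPM) and 13.6 CPM in Het libraries (11.5 to 15.03 CPM), with Slc18a2, the vesicular monoamine transporter, the largest part at 7.72 CPM. The Slc6a4 locus overlaps 1 gene on the opposite strand, and the sources used here do not say how reads were assigned by strand.

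Htr2a, the Gq-coupled receptor of cortical pyramidal cells, was highest in L6b/subplate ExN. It read 114 ± 20.3 CPM there, 39.0 ± 7.19 CPM in MGE InhN, 28.6 ± 7.25 CPM in deep-layer ExN and 4.77 ± 1.56 CPM in upper-layer ExN (n = 12 each). L6b/subplate ExN exceeded MGE InhN in 12 of 12 libraries (adjusted p = 0.0264, exact sign-change permutation test over neighbouring pairs). MGE InhN and deep-layer ExN were not separated (adjusted p = 0.218, exact permutation test). Deep-layer exceeded upper-layer ExN by 2.37 ± 0.59 on the log2(CPM + 1) scale in 12 of 12 libraries (adjusted p = 0.000977 over the 6 contrasts, exact sign-change permutation test). L6b/subplate Htr2a ran from 78.2 CPM through 117 CPM to 138 CPM in WT and read 108, 130.1, 90.07 and 139 CPM in Het. Endothelial nuclei read 23.7 ± 15.2 CPM from 53.5 UMIs in all. A Htr2a UMI was found in 23.6% of L6b/subplate nuclei (median depth 3057 UMIs), 5.31% of deep-layer nuclei and 0.698% of oligodendrocyte-lineage nuclei.

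Htr2c, also Gq-coupled, had its highest mean in the choroid plexus class, with 11467 of 19739 UMIs. Only 6 libraries had at least 10 nuclei of this class. Htr2c read 3115 CPM in WT 1, 13391 CPM in WT 2, 12201 CPM in WT 7, 15278 CPM in Het 2 and 11194 CPM in Het 3, but 99.9 CPM in Het 1. The 62 nuclei gated in Het 1 went against the name of the class, since Ttr, a defining gene of the choroid plexus that encodes a thyroid hormone carrier, was at 0 there and 4 of the 8 choroid markers were at 0. In the 5 other libraries Ttr ran from 1133 to 4657 CPM and no marker was at 0. Over 6 libraries the choroid class exceeded astroglia by 8.90 ± 2.72 on the log2(CPM + 1) scale (6 of 6 libraries, adjusted p = 0.0469, exact sign-change permutation test). Without Het 1 the difference was 9.96 and the adjusted p 0.0750, since 5 libraries cannot give an exact p under 0.0625. Over D2 striatal InhN, the class next in order, the choroid class was higher in 5 of 6 libraries and was not separated (exact permutation p = 0.0625, adjusted p = 0.407 over the 162 neighbouring pairs), with Het 1 the exception.

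Among the neuron classes, Htr2c was highest in striatal projection neurons, followed by basal forebrain cholinergic neurons and CGE InhN. It read 149 ± 56.6 CPM in D2 striatal InhN, 134 ± 42.1 CPM in D1 striatal InhN, 89.7 ± 49.5 CPM in basal forebrain cholinergic neurons (n = 11) and 85.6 ± 18.4 CPM in CGE InhN, against 5.05 ± 2.93 CPM in upper-layer ExN. D2 and D1 were not separated (0.14 on the log2(CPM + 1) scale, higher in D2 in 7 of 12 libraries, exact permutation p = 0.558). A UMI of Htr2c was found in 18.7% of D1 nuclei, 12.5% of cholinergic nuclei, 9.27% of CGE InhN and 1.16% of oligodendrocyte-lineage nuclei. The 6 libraries with at least 10 choroid-gated nuclei pooled to 145 CPM in D1 and 148 CPM in D2 nuclei, and the other 6 to 132 and 141 CPM.

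Vascular Htr2c rested on a handful of nuclei. Pooled endothelial Htr2c was 128 CPM in the 6 libraries with at least 10 choroid-gated nuclei (173 CPM without Het 1) and 8.96 CPM in the others, and 205 of the 220.5 endothelial UMIs lay in 4 of 1104 nuclei. One nucleus of WT 2 held 105 Htr2c UMIs. Mural Htr2c had 43 of 52 UMIs in 1 nucleus of Het 3, and microglial Htr2c had 31 of 43.3 UMIs in 1 nucleus of Het 2. Without the UMIs of nuclei with 10 or more, the levels were 6.48 CPM in endothelial, 18.9 CPM in mural and 12.1 CPM in microglial nuclei, while D1 kept 139 CPM. There were 3.61 Htr2c UMIs per Ttr UMI in endothelial and 3.31 in choroid plexus nuclei, against 22.6 in D1, 18.7 in D2 and 11.8 in CGE InhN. Low ratios were also read in MGE InhN (3.30), Cajal-Retzius cells (4.09) and deep-layer ExN (2.58). Still lower ones were read in fibroblasts (0.984), the oligodendrocyte lineage (0.974), upper-layer ExN (0.905) and astroglia (0.893), the lowest of all classes. In MGE InhN pooled Htr2c was 16.1 CPM in the 6 libraries and 19.4 CPM in the others. Ttr was raised with Htr2c in endothelial, mural and microglial nuclei (36.6 CPM in endothelial nuclei of the 6 libraries, 49.8 CPM without Het 1, and 0 in the others). The part of choroid plexus RNA in these values was not tested.

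**Figure D2:**
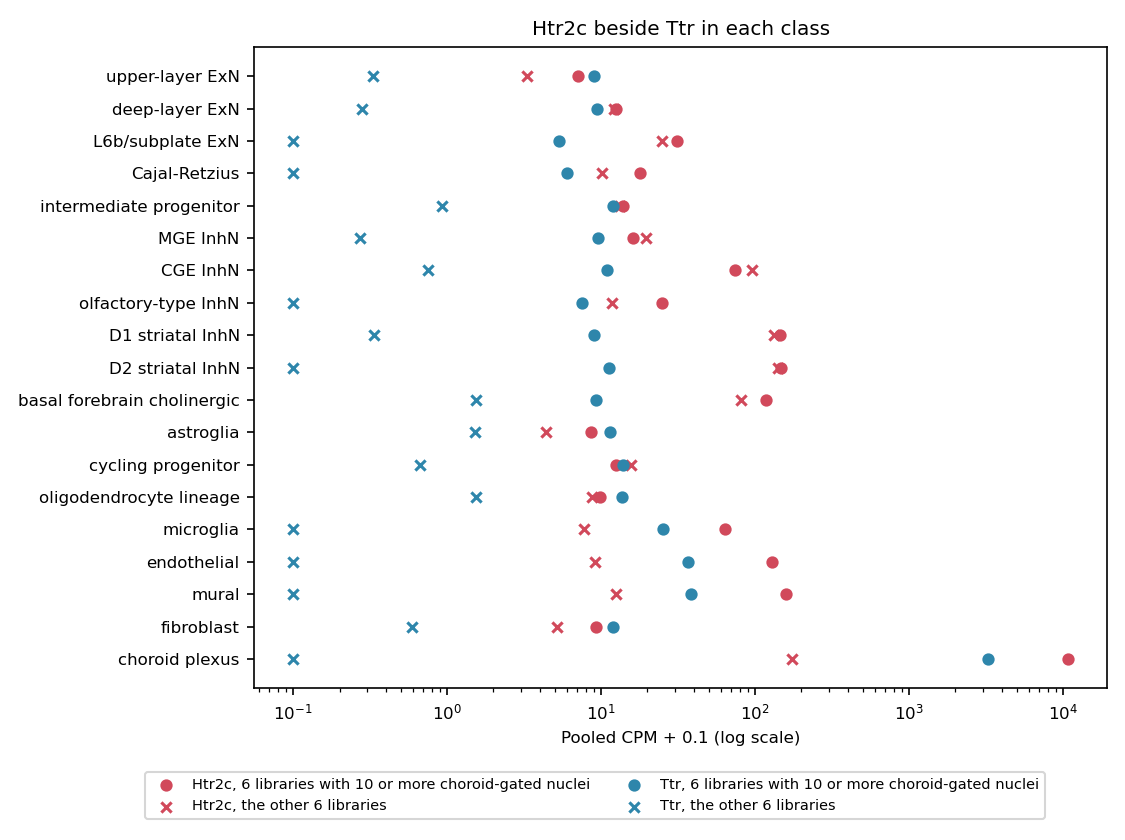
Pooled CPM + 0.1 on a log scale (x) of Htr2c (red) and of the choroid plexus gene Ttr (blue) in each class (y), with circles for the 6 libraries that had at least 10 nuclei in the choroid plexus gate (Het 1 among them, whose gated nuclei had no Ttr) and crosses for the other 6. Ttr was 5.23 CPM or more in every class of the first libraries and at most 1.45 CPM in the second, while Htr2c in D1, D2 and CGE InhN was of like size in both.

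Htr3a, the subunit of the serotonin-gated channel, was concentrated in CGE InhN. It read 42.4 ± 12.7 CPM there and 1.11 ± 1.36 CPM in MGE InhN, a difference of 4.54 ± 1.02 on the log2(CPM + 1) scale in 12 of 12 libraries (adjusted p = 0.000977 over the 6 contrasts, exact sign-change permutation test). Olfactory-type InhN came next at 4.45 ± 3.25 CPM and was lower in 12 of 12 libraries (adjusted p = 0.0264 over neighbouring pairs, exact permutation test). In CGE InhN the WT libraries ran from 19.1 through 46.7 to 65.7 CPM and the Het libraries read 33.6, 48.8, 42.8 and 39.2 CPM. CGE InhN held 53.8% of the 307 Htr3a UMIs, and 6.94% of its nuclei had one against 0.129% of oligodendrocyte-lineage nuclei.

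The Gs-coupled receptors Htr4 and Htr7 had their highest means in basal forebrain cholinergic neurons. Htr4 read 82.2 ± 36.7 CPM there (n = 11), ahead of deep-layer ExN at 45.5 ± 8.33 CPM, L6b/subplate ExN at 42.2 ± 17.5 CPM and CGE InhN at 37.2 ± 15.0 CPM (n = 12), and no neighbouring pair among these 4 classes was separated after adjustment (adjusted p of 0.407 or more, exact permutation test). Cholinergic Htr4 ran from 11.2 through 92.5 to 150 CPM in WT and read 72.7, 85.3, 82.3 and 57.6 CPM in Het. Htr7 read 58.7 ± 26.6 CPM in cholinergic neurons (n = 11), running from 11.2 through 53.1 to 104 CPM in WT, with Het libraries at 78.2, 57.9, 73.6 and 31.01 CPM. The choroid plexus class followed at 26.2 ± 24.2 CPM from 34 UMIs (n = 6, with Het 1 at 7.68 CPM, adjusted p = 0.389, exact permutation test). In the striatal classes Htr7 read 14.1 ± 7.94 CPM in D2 and 1.85 ± 1.66 CPM in D1, a pair that was not among the planned contrasts and is given without a test. Ungated nuclei, 29139 of the 96566 kept, held 49.4% of all Htr7 UMIs at 15.7 CPM and 40.0% of Htr4 UMIs at 21.8 CPM. Over all kept nuclei the library means were 10.7 CPM for Htr7 and 19.0 CPM for Htr4. The ungated level was therefore near the all-nuclei level for Htr4 and above it for Htr7, without a test. Ungated shares of the other listed genes ran from 11.7% (Htr3a) to 39.1% (Htr1a), with Htr2a at 33.2%.

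Htr1b and Htr1a, both Gi-coupled, were at the limit of this depth. Htr1b gave 423 UMIs and was highest in D1 striatal InhN at 10.4 ± 4.39 CPM, against 7.18 ± 5.27 CPM in D2, with D1 higher in 9 of 12 libraries (0.83 ± 1.53 on the log2(CPM + 1) scale, adjusted p = 0.0920 over the 6 contrasts, exact sign-change permutation test). Without WT 6 the difference was 1.01 with an adjusted p of 0.0366 (exact permutation test), and a gate on each nucleus's own UMIs gave -0.02. Htr1a gave 87 UMIs in all. MGE InhN gave 22 of them, at 1.68 ± 0.89 CPM with 1 library at 0, and a higher mean in cholinergic neurons (2.04 CPM) came from 2 UMIs. Htr1a had 4.5 UMIs in deep-layer and 7 in upper-layer ExN, with 7 of 12 libraries at 0 in each class, so a difference between them was not detectable at this depth (-0.09 ± 0.44 on the log2(CPM + 1) scale, adjusted p = 0.547, exact permutation test).

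The genes whose class means on the log2(CPM + 1) scale ran most like those of each member were listed by Pearson's r across the 19 classes, among 10271 genes that reached 20 CPM in a class and were not gate markers. This r is a description over 19 points that share libraries, and no test was made. Htr3a was most like Prox1os (r = 0.947) and Asic4 (0.814). Htr2c was most like Col6a5 (0.885) and Spint2 (0.839), both with their top level in the choroid plexus class. Htr4 was most like Ptpn5 (0.87) and Pitpnm3 (0.852), Htr1b like Myo3b (0.853) and Entpd3 (0.85), and Htr1f like Nptx1 (0.843) and Slc6a7 (0.796). Htr1a was nearest to Kcns3 (0.814) and Nxph2 (0.737), Htr2a to Mypn (0.80) and Pappa2 (0.737), Htr7 to Syt13 (0.796) and Klhdc10 (0.788), and Slc6a4 to Tll2 (0.778) and Nin (0.662).

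No serotonin gene passed the test between Het and WT in any class. The comparison asked whether these genes differed between genotypes within each class. The test, edgeR's quasi-likelihood test with Benjamini-Hochberg adjustment over all genes, could be made for 40 of the 171 gene and class pairs, the rest falling under the filter on low counts. Called means an adjusted p under 0.05 and a log2 difference of at least 0.2. The count was 0 of 40, with 0.00258% of all 116348 gene and class pairs called. At an unadjusted p under 0.05 the count was 5 of 40 (12.5%), 2 higher and 3 lower in Het, against 5.45% of all pairs. DESeq2 called 0 (0.0155% of all pairs), with no adjusted p for 9 of the 40, and had 3 at an unadjusted p under 0.05 (3.32% of all pairs). The 40 log2 differences had a median of -0.09, with 13 above and 27 below 0, and the smallest adjusted p was 0.599. Het libraries lay wholly outside the WT range in 0 of the 119 pairs with a mean of 1 CPM or more, against 0.797% of all gene and class pairs at that level.

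**Figure D3:**
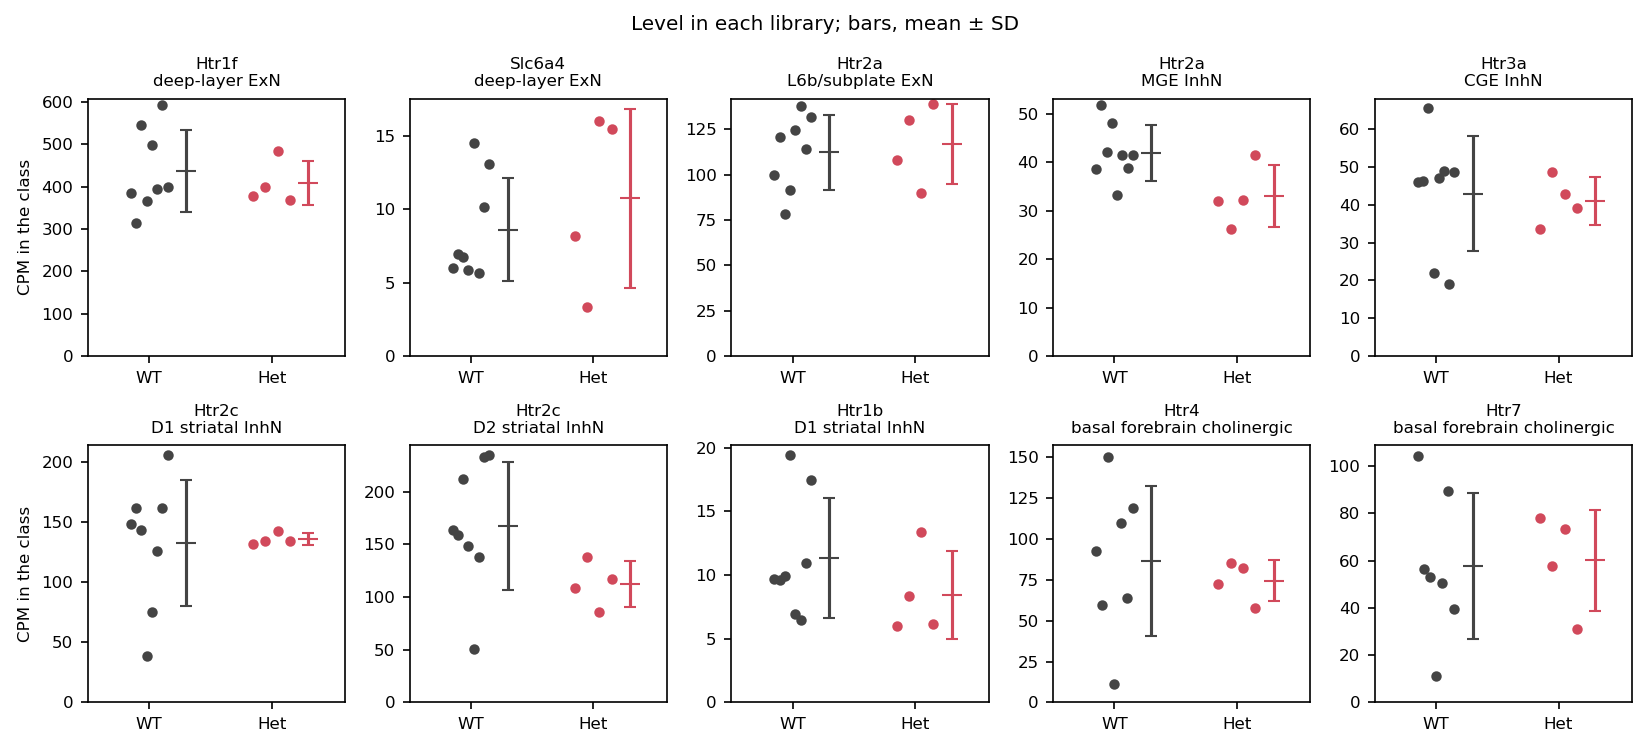
CPM in single libraries (y) for 10 gene and class pairs, with grey points for the 8 WT and red points for the 4 Het libraries, and bars for mean ± SD. Each y axis starts at 0, cholinergic panels have 7 WT points, and WT and Het ranges overlap in each panel.

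Htr2c in D2 striatal InhN had the smallest unadjusted p among the class pairs. Htr2c there ran in WT from 50.9 (WT 5) through 161 to 235 CPM, and the Het libraries read 109, 138, 85.7 and 117 CPM, inside the WT range. The log2 difference was -0.61 (SE 0.21, edgeR adjusted p = 0.741). Ttr in D2 striatal InhN was of opposite direction, at 1.72 ± 3.57 CPM in WT and 10.6 ± 12.3 CPM in Het. Htr2c in D1 striatal InhN differed by -0.10 (SE 0.14, edgeR), and the Het minus WT difference was not shown to differ between D1 and D2 (0.65 on the log2(CPM + 1) scale, exact permutation p = 0.113, adjusted p = 0.691 over 18 such tests). In upper-layer ExN, Htr2c had a log2 difference of 0.74 (SE 0.32, edgeR adjusted p = 0.661), from 4.10 ± 1.38 CPM to 6.96 ± 4.44 CPM. Ttr moved with it, at 1.52 ± 1.85 CPM in WT and 9.80 ± 12.4 CPM in Het upper-layer ExN, and its part in this difference was not tested. Without Het 3 the upper-layer Htr2c difference was 0.25.

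Htr2a had fitted differences of opposite sign in the 2 classes where it had an unadjusted p under 0.05, and it was called in neither. In deep-layer ExN its log2 difference was 0.40 (SE 0.17, edgeR adjusted p = 0.599), from a WT range of 20.1 to 37.8 CPM to Het values of 29.9, 37.2, 43.6 and 24.9 CPM. In MGE InhN it was -0.33 (SE 0.15, edgeR adjusted p = 0.640), from a WT range of 33.1 to 51.8 CPM to Het values of 32.1, 26.1, 32.2 and 41.6 CPM. The ranges overlapped in both classes, and the deep-layer Htr2a difference was 0.24 without Het 3 and -0.0034 with the gate on own UMIs. The MGE InhN difference of Htr2a was -0.13 with that gate. Htr7 in deep-layer ExN had a log2 difference of -0.90 (SE 0.42, edgeR adjusted p = 0.632), with Het libraries between 7.44 and 9.07 CPM inside a WT range of 3.23 to 26.6 CPM, and the difference ran from -1.04 to -0.143 across the alternative settings. Without the filter on low counts, deep-layer Htr7 (-0.94) and Htr2c in microglia (2.89) and mural nuclei (2.62) were called (0.131% of all pairs), the last 2 resting on the single nuclei described above.

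**Figure D4:**
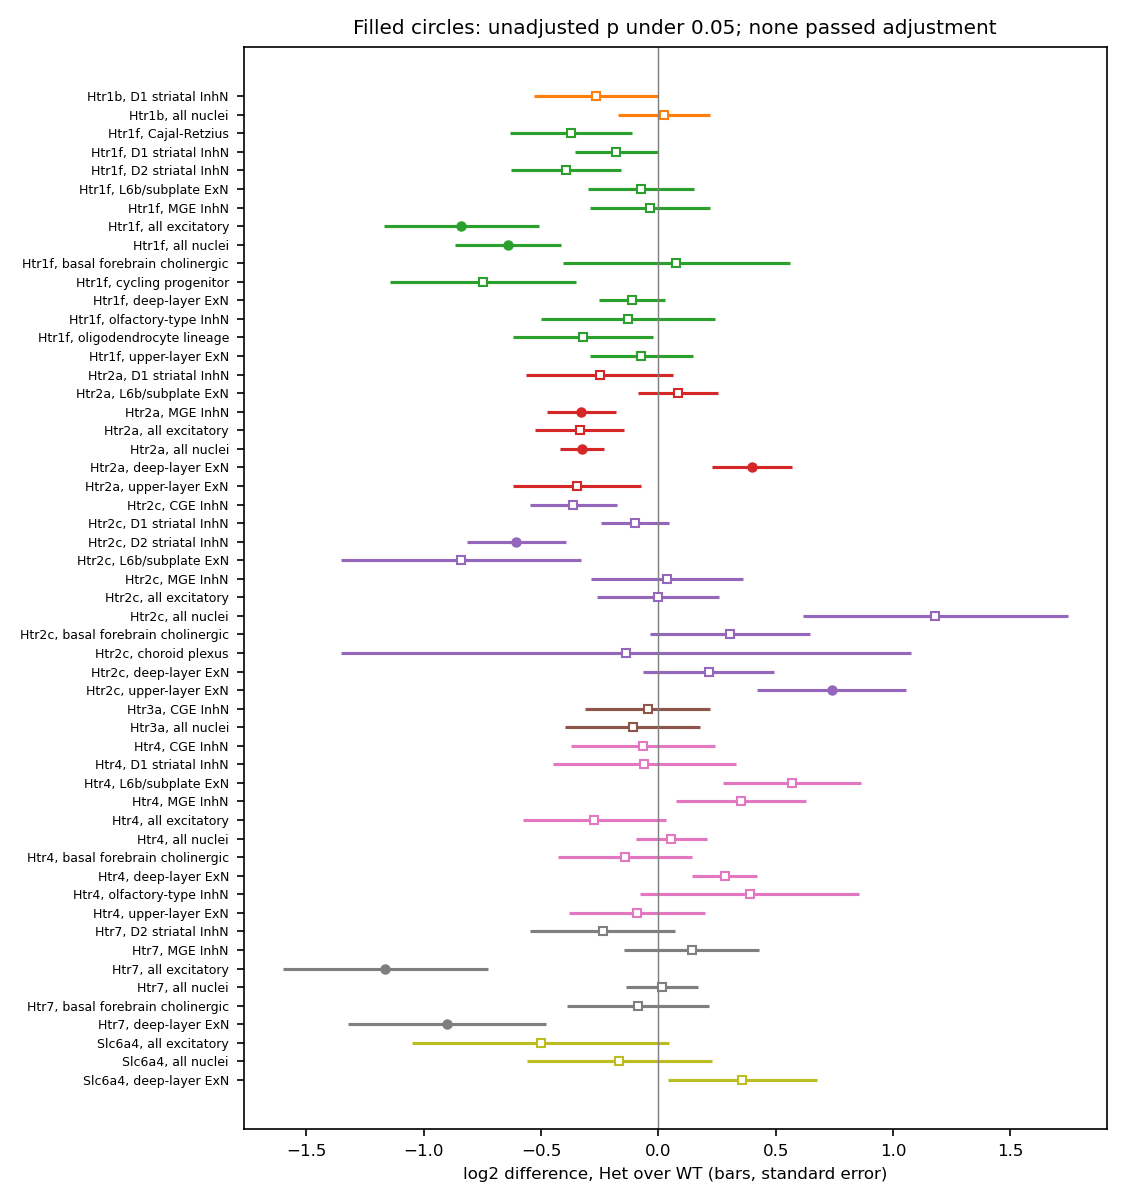
Log2 difference between Het and WT (x, with standard errors) for each gene and class that could be tested by edgeR (y), coloured by gene and including all excitatory and all kept nuclei. Filled circles had an unadjusted p under 0.05, and 0 pairs passed adjustment.

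Over all kept nuclei 0 of the 8 genes tested were called, with 0% of 20221 genes called, and over all excitatory nuclei 0 of 6, with 0.00736% of 13588 genes called. Unadjusted p under 0.05 was met by 2 of the 8 genes (10.7% of all genes) and 2 of the 6 (12.8% of all genes). Htr1f over all excitatory nuclei had a log2 difference of -0.84 (SE 0.33, edgeR adjusted p = 0.319), with WT libraries from 104 through 237 to 363 CPM and Het libraries at 66.9, 95.5, 130.5 and 228 CPM. The share of deep-layer nuclei among excitatory nuclei moved with it, at 44.8% ± 14.5 in WT libraries and 27.0% ± 18.3 in Het libraries (exact permutation p = 0.0970, adjusted p = 0.210 over the 20 class shares compared). Het 4, the only female Het library, had a share of 54.0% and the highest Het level. Within deep-layer ExN the Htr1f difference was -0.11 (SE 0.14), and with the 3 excitatory classes weighted equally in each library it was -15.3 CPM (unadjusted exact permutation p = 0.598) in place of -98.5 CPM (p = 0.0788). The part of the deep-layer share in the Htr1f difference was not tested beyond this. Without Het 4, Htr1f (-1.25, edgeR adjusted p = 0.0386) and Htr4 (-0.82, edgeR adjusted p = 0.0405) over excitatory nuclei were called, as were 3.84% of all genes there. That setting leaves only male Het libraries against WT libraries of both sexes. The deep-layer shares of these male Het libraries were 14.3%, 17.7% and 21.8%, below the lowest WT share of 25.1%. With all libraries, mean Htr4 was 43.1 CPM in WT and 50.1 CPM in Het deep-layer ExN. It was 38.1 and 50.4 CPM in L6b/subplate ExN, and 5.94 and 5.79 CPM in upper-layer ExN. The deep-layer Htr4 log2 difference ran from 0.060 to 0.356 across the alternative settings. The part of the deep-layer share in these calls was not tested. Htr7 over all excitatory nuclei had a log2 difference of -1.16 (SE 0.44, edgeR adjusted p = 0.306), at 8.94 ± 6.53 CPM in WT and 4.46 ± 1.03 CPM in Het. It ran from -1.29 to -0.416 across the alternative settings, and with the 3 excitatory classes weighted equally the Htr7 difference was -3.10 CPM (unadjusted exact permutation p = 0.226).

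**Figure D5:**
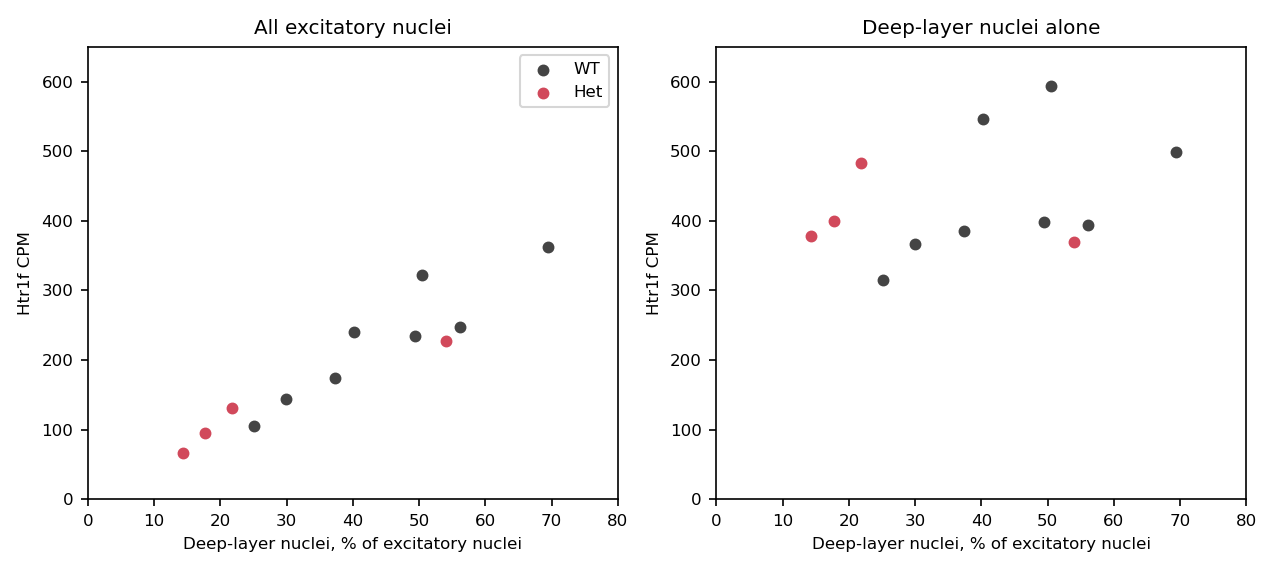
Htr1f CPM (y) against the percentage of excitatory nuclei that were deep-layer (x) in the 8 WT (grey) and 4 Het (red) libraries, for all excitatory nuclei (left) and for deep-layer nuclei alone (right). In the left panel the library with the largest share (69.4%) reads highest and the one with the smallest (14.3%) lowest, while in the right panel the Het points lie at 369 to 483 CPM within the WT range.

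Over all kept nuclei Htr2a had a log2 difference of -0.33 (SE 0.09, edgeR adjusted p = 0.325). Its WT libraries ran from 15.8 through 16.5 to 19.4 CPM and the Het libraries read 11.8, 13.1, 12.8 and 17.5 CPM, so 3 of 4 Het libraries lay below every WT library. The shares of the 3 classes highest in Htr2a moved with it. Deep-layer ExN, which held 18.1% of Htr2a UMIs, made up 11.2% ± 3.85 of WT and 6.48% ± 3.20 of Het nuclei (adjusted p = 0.210, exact permutation test). MGE InhN made up 6.89% ± 0.970 of WT and 5.24% ± 0.541 of Het nuclei, and L6b/subplate ExN 1.26% ± 0.165 and 0.933% ± 0.230 (adjusted p = 0.210 for both, exact permutation test over the 20 class shares). With the 16 classes present in every library weighted equally, the Htr2a difference was -0.0174 CPM (unadjusted exact permutation p = 0.996). That weighted value leaves out the ungated nuclei, which held 33.2% of Htr2a UMIs. The part of the class shares in the all-nuclei Htr2a difference was not tested. Without Het 4, which leaves only male Het libraries, the all-nuclei Htr2a difference was -0.45 and was called (adjusted p = 0.0325, edgeR), with 0.244% of all genes called.

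Htr2c over all kept nuclei had a log2 difference of 1.18 (SE 0.56, edgeR adjusted p = 0.472), at 57.1 ± 43.4 CPM in WT and 132 ± 117 CPM in Het, and of 0.53 without Het 2. The share of nuclei gated as choroid plexus moved with it, at 0.242% ± 0.265 of WT and 0.862% ± 0.665 of Het nuclei (unadjusted exact permutation p = 0.0343, adjusted p = 0.210 over the 20 class shares). Without Het 1, whose gated nuclei went against the class name, the Het share was 0.950% ± 0.785 (n = 3, unadjusted exact permutation p = 0.0364), so the unadjusted p hardly moved. The 6 libraries with fewer than 10 nuclei of this class also had Ttr at 0 in them and were kept in both shares. Without that class Htr2c read 35.8 ± 10.4 CPM in WT libraries and 41.6 ± 10.8 CPM in Het libraries (unadjusted exact permutation p = 0.382). The part of the choroid-gated nuclei in the all-nuclei difference was not tested beyond this. Within the choroid class Htr2c read 9569 ± 5621 CPM in WT and 8857 ± 7854 CPM in Het libraries (n = 3 each, Het 1 included). From pooled values alone, a change in the number of nuclei of a type and one in RNA per nucleus cannot be told apart.

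Among 54 other genes of the pathway (synthesis and breakdown, other receptors, other uptake, G proteins, effectors, channels and partners), 51 were tested over all nuclei and 0 were called, with 3 higher and 8 lower at an unadjusted p under 0.05 (21.6%, against 10.7% of all genes). Over excitatory nuclei 0 of 38 were called, with 3 higher and 9 lower at an unadjusted p under 0.05 (31.6%, against 12.8% of all genes). Within classes 0 of 498 gene and class pairs were called (0.00258% of all pairs), and 43 had an unadjusted p under 0.05 (8.63%, against 5.45% of all pairs). The 16 effectors of cyclic AMP and calcium had a median log2 difference of -0.10 over all nuclei, with 1 higher and 4 lower at an unadjusted p under 0.05 (31.2%). Over excitatory nuclei their median was -0.175, with 2 higher and 7 lower (56.2%). The 10 G proteins had 1 higher and 3 lower over all nuclei (40.0%), and 0 of 9 met that p over excitatory nuclei. Beside these excitatory values, deep-layer nuclei averaged 44.8% of excitatory nuclei in WT and 27.0% in Het, and the part of that share in them was not tested. Over all nuclei the median was -0.07 for the G proteins, -0.08 for the receptor partners and -0.16 for the GIRK channels, and it was 0.04 for synthesis, storage and breakdown, 0.06 for the other receptors and 0.13 for the other uptake genes. These lists were chosen with earlier results known, and none was tested as a set.

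Levels of other pathway genes also varied between classes, as described here without a test. Maoa, which breaks serotonin down, was highest in endothelial nuclei at 224 CPM, where Ddc, the decarboxylase of amine synthesis, also peaked at 48.7 CPM. Slc29a4, a low-affinity monoamine transporter, reached 58.5 CPM in upper-layer ExN and in the choroid plexus class, and Slc22a3, the other such transporter, reached 57.4 CPM in the oligodendrocyte lineage and 48.5 CPM in D1 striatal InhN. The 6 receptors outside the list had class means of at most 5.62 CPM, which Htr1d reached in L6b/subplate ExN.

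In the GENCODE annotation of the mm10 build, Htr1f spans chr16:64924729-65105854 on the minus strand, Htr2a chr14:74640840-74709494 on the plus strand, Htr3a chr9:48899213-48911099 on the minus strand and Slc6a4 chr11:76998603-77032340 on the plus strand. Htr2c spans chrX:146962513-147197277 on the plus strand and hosts 8 small RNA genes on its own strand, whose reads cannot be told apart from its pre-mRNA.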

How the data were processed

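Nuclei had been fixed and barcoded by split pooling (ScaleBio kit). The authors mapped reads to mm10 with the ScaleRna workflow and deposited matrices of expected counts without normalization, where 6.58% to 6.88% of entries hold a UMI divided among genes. Seurat 4.3.0 is named in the submitters' processing notes. Nuclei were kept here within 800 to 6000 UMIs and 300 to 3000 detected genes, with mitochondrial UMIs of 1% or less and a complexity (log genes over log UMIs) of 0.9 or more, and the 5% of barcodes per library with the highest simulated-doublet score were removed (3434 of 100000 passing). Markers of each nucleus and its 30 nearest neighbours (50 components of 3000 variable genes, the 9 serotonin genes left out) were scored, and a nucleus took the top class at a score of 0.75 and a lead of 0.25, thresholds set after the scores were seen. In the deep-layer gate 673 nuclei lay within 0.1 of the score threshold. Counts were summed per library and class, rounded to whole numbers (the design had assumed whole counts) and tested with edgeR 4.0.16 (TMM, filterByExpr, quasi-likelihood) in R 4.3.3, on libraries with at least 10 nuclei. DESeq2 1.42.0, no TMM, no filter, other gates, a sex covariate, males only, doublets kept, all barcodes and a replicate block were alternatives. The edgeR and permutation steps were tested on simulated data. Replicate numbers were not taken as pairs, since the 4 same-numbered pairs had deviations correlated at 0.44, -0.194, 0.0573 and 0.199.

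The genes, gene lists and tests were chosen with earlier results of these data known. The rule for named genes covered the 9 members, pathway genes passing the test (0) and the 2 genes most like each member. Myt1l, the gate and raphe markers, and the pathway genes whose class levels are described were named outside this rule. Free RNA was not subtracted here.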

Additional observations from a re-analysis of the deposited data

Results flagged for a closer look

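Htr1a and Htr2a each had a single library that stood apart from their group by Dixon's ratio, which was computed for 34 groups of 4 to 10 libraries. It flags about 1 in 20 groups by chance where values are normally distributed. Htr1a in basal forebrain cholinergic nuclei read 22.4 CPM in WT 5 and 0 in each other library, from 2 UMIs in 34 nuclei. With every other library at 0, the ratio is at its largest for any value above 0, so that chance rate does not apply to Htr1a. Htr2a over all kept nuclei read 19.4 CPM in WT 6, above the other 7 WT libraries at 15.8 to 17.3 CPM.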

How the results depend on the processing

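The count of serotonin gene and class pairs called between Het and WT was 0 in the gated classes (0.00258% of all pairs). Without the low-count filter it was 3, from Htr7 and Htr2c (0.131% of all pairs). Over all kept and all excitatory nuclei the count was 0, and between 0 and 3 when single libraries were left out. It was 3 only without Het 4, where 0.244% of all genes over all nuclei and 3.84% over excitatory nuclei were called. That setting leaves only male Het libraries against WT libraries of both sexes. The replicate block gave 0 in both (Htr7 was -0.143 in deep-layer ExN and -0.416 over excitatory nuclei), and in the data 2 of the 4 WT libraries and 1 of the 4 Het libraries with a shared number correlated best with their own number. Choroid plexus over astroglia Htr2c ran from 8.52 to 9.96 with 1 of its libraries left out, with adjusted p from 0.0750 to 0.0938, and was 10.6 with the gate on own UMIs (adjusted p = 0.0938, exact permutation test on 5 libraries), since 5 libraries cannot give a p under 0.0625. Striatal Htr1b was -0.0189 (reversed) with that gate and 0.51 to 1.01 over single libraries left out. Htr1a in deep against upper layers ran from -0.14 to 0.0079 over single libraries left out (0.0079 without WT 6), and deep-layer Htr2a was -0.0034 with the gate on own UMIs, an alternative chosen after seeing the data. The cause was not tested. Another 138 values of the counts and class contrasts and 341 of single pairs kept their direction and side of the threshold. Depth limits Htr1a, Htr1b, Htr3a and Slc6a4, which had 87 to 423 UMIs in 96566 nuclei, so that small differences in them were not detectable.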

Other observations

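Across the 19 class means on the log2(CPM + 1) scale, Htr4 and Htr7 ran most alike (Pearson's r = 0.797), followed by Htr1b and Htr2c (0.585) and by Htr1f and Htr4 (0.575). Htr2a and Htr2c had the lowest value (-0.183). These are descriptions over 19 points that share libraries and depth, with no test.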
